A study of Homo sapiens with 8 samples.

Results

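The HOX genes encode homeodomain transcription factors that lie in 4 clusters, HOXA to HOXD, and the nascent transcription of all 39 of them was measured in IMR90 cells. Members were taken by name alone, as the rows of the count table whose symbol is HOXA, HOXB, HOXC or HOXD followed by a number, which gave 39 of 27945 genes. IMR90 is a line of normal diploid fibroblasts grown from human embryonic lung. Nascent transcripts were captured by fastGRO-seq, which tags RNA as engaged polymerases extend it, so that a read count reflects ongoing transcription over a whole gene, introns included, rather than the amount of mature mRNA.

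There were 4 groups of 2 libraries each. Control cells were labelled wild type and control, and their labels do not say whether they carried the senescence-inducing fusion gene, uninduced, or a control short hairpin RNA (shRNA). The other 3 groups were made senescent with an inducible fusion of the estrogen receptor and oncogenic H-RAS (ER:RAS), and carried a control shRNA (shControl), an shRNA against METTL3 or an shRNA against METTL14. METTL3 and METTL14 are the core subunits of the RNA m6A methyltransferase complex. If the control cells carried no shRNA, senescence and the presence of an shRNA cannot be told apart where senescent shControl cells are set against them. By the study's methods the shRNAs were delivered by lentivirus, the control shRNA was a scrambled sequence, and each target was hit by 1 shRNA in this assay, so an effect of the single shRNA sequence cannot be told apart from that of its target. The study describes its fastGRO-seq experiments as biologically independent. The labels do not say which cultures the libraries came from, and p-values measure the spread between these libraries.

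HOX genes record position. During development their order along the chromosome follows the order in which they are switched on along the body axis, low-numbered paralog groups toward the head and high-numbered groups toward the tail, and adult fibroblasts keep the HOX pattern of the site they came from. The lung forms from the foregut, and its mesenchyme is known for low-numbered HOXA and HOXB genes, above all HOXA5 and the middle of the HOXB cluster. HOX proteins bind DNA with TALE homeodomain partners of the PBX, MEIS and PKNOX families, while Polycomb complexes keep unused HOX genes silent.

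Libraries held 14897360 to 20306299 counts, of which 86.25% to 92.54% fell in 21 ribosomal RNA rows, so that 1513930 to 2048475 counts per library lay in other rows. All 12 fibroblast markers reached 10 or more counts in at least 1 library, though S100A4 did so in only 1 and held 1 to 10 counts. Their summed level per gene length, in RPKM (reads per kilobase and per 1000000 counts of the scaled, or effective, library), was 68.8 to 73.85 in control, 49.09 to 52.63 in senescent shControl, 45.74 to 54.67 in shMETTL3 and 39.69 to 41.85 in shMETTL14 libraries. Of the 8 lung epithelial markers only KRT18 reached 10 counts, and NKX2-1, the lung epithelial regulator, was at 0 in every library, as was the lymphocyte gene CD3E. Other lineage markers were not all absent. Of the 4 immune markers CD68 reached 60 counts in a library, and of the 5 endothelial markers TEK reached 123 and VWF 10. METTL3 held 80 and 78 counts in control, 77 and 47 in shControl, 16 and 19 in shMETTL3 and 73 and 56 in shMETTL14 libraries, a log2 fold change of -2.04 ± 0.31 (SE; edgeR adjusted p = 1.8e-05) between shMETTL3 and shControl. METTL14 held 60 and 55, 24 and 28, 41 and 48, and 18 and 14 counts in the same order, and its change of -0.86 ± 0.34 between shMETTL14 and shControl did not pass the threshold (edgeR adjusted p = 0.076). An shRNA acts on mature RNA, so nascent counts check these labels only indirectly.

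Sequences are shown for members on which the results below turn and for which RefSeq entries (GRCh38.p14) were given. Promoter entries were found for 20 of the 39 genes, 27 sequences in all, and all 27 matched the GRCh37 genome (hg19, the build of the count table) once. HOXA3 was the only one of the 8 genes tested below with an entry. It has 7 annotated starts, and the upstream 250 bases of the 2 starts that held the most and the fewest CpG dinucleotides among the starts inside the counted span (chr7:27145809-27166639, minus strand) are given 5′ to 3′, in lower case with each CpG in capitals. The first lies at chr7:27153462-27153711 and the second at chr7:27159215-27159464.
HOXA3 start at 27153461: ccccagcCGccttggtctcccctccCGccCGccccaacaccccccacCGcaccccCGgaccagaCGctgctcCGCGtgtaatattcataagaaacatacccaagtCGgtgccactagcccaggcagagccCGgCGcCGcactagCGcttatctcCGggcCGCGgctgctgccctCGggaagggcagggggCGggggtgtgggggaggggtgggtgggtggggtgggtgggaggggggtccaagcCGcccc
HOXA3 start at 27159214: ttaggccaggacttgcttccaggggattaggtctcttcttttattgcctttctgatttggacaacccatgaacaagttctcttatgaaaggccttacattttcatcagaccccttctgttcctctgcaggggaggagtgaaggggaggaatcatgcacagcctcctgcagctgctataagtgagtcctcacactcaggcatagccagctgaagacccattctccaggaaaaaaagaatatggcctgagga
The first held 19 CpGs and the second 0, beside a median of 19 over the 27 HOX sequences and of 11 over 35116 promoters of the same length. A further 2 HOXA3 starts lie outside the counted span, at 27190569 and 27192202, upstream of HOXA5 and HOXA6, so transcripts from those starts would run across the HOXA4, HOXA5 and HOXA6 rows. Over the full 300 bases from 250 before to 50 after the start, searched on both strands, the retinoid receptor motif AGGTCA was in 0 of the 27 HOX sequences and in 13.8% of all promoters. The TATA motif TATAAA was in 5 of 27 (18.5%) against 11.5%, the homeodomain motif TAATTA in 2 of 27 (7.41%) against 4.84%, and the PBX-HOX motif TGATTNAT in 2 of 27 (7.41%) against 2.82%. HOXC4 and HOXC5 share 1 sequence, and motif matches are descriptions of these windows.

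The HOXB3 row also holds a microRNA gene. MIR10A lies wholly inside the counted HOXB3 span (chr17:46626232-46659984, minus strand), so reads across its precursor were counted for HOXB3 as well. Its mature products are given 5′ to 3′ with the seed, bases 2 to 8, in capitals.
hsa-miR-10a-5p: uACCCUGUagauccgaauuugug
hsa-miR-10a-3p: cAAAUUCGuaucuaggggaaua
The MIR10A row itself held 2 counts over all libraries, which is too few to follow, and MIR10B, its relative in the HOXD cluster, held 0.

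Transcription was concentrated in low-numbered HOXB and HOXA genes. Of the 39 genes 24 had at least 1 count in some library and 15 had none in any. The 20 genes of paralog groups 1 to 7 included 17 with counts and reached 356 counts in a single library, whereas the 19 genes of groups 8 to 13 included 7 with counts and reached 5. HOXB had counts in 8 of 10 genes, HOXA in 10 of 11, HOXC in 5 of 9 and HOXD in 1 of 9, the last being a single HOXD3 count in 1 senescent shControl library. HOXC genes did not exceed 7 counts in any library, and the HOXC4, HOXC5 and HOXC6 rows share a start and partly the same reads. A count of 0 allows up to 3 counts, which for the 15 members at 0 corresponds to 0.01881 to 0.2067 RPKM depending on gene length and library, and covers counting error only. Each of these limits is for a single library. The upper end, for HOXD12 (958 bases), lies above the mean level of HOXB7 over the 8 libraries (0.1605 RPKM). Within a single library, low transcription of this shortest gene was therefore not detectable. All 15 members were at 0 in every library, and a limit on their mean level, which would be lower, was not calculated.

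**Figure D1:**
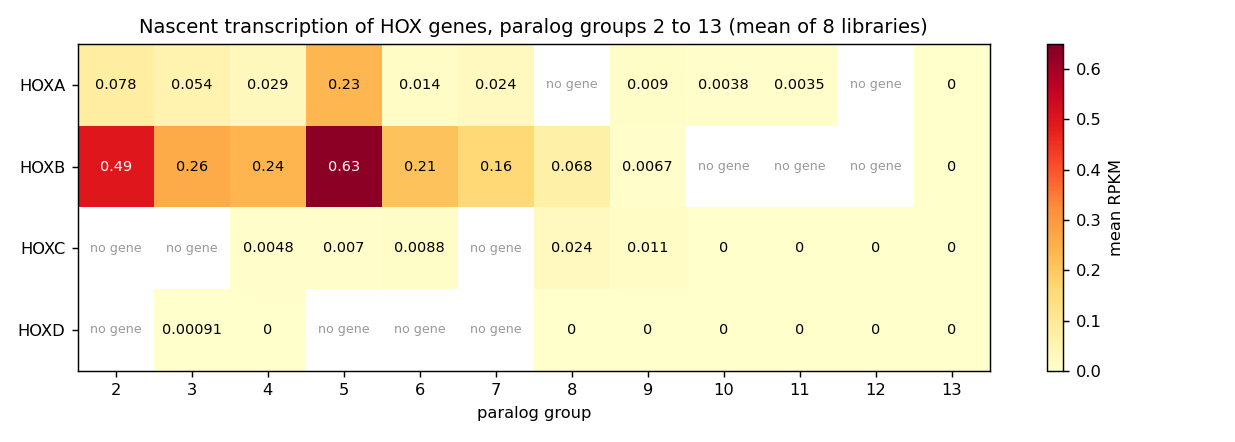
Mean level of the HOX genes of paralog groups 2 to 13 over the 8 libraries, in RPKM (colour and printed value), by cluster (rows) and paralog group (columns), with "no gene" where a cluster lacks that group. HOXB5 (0.6316) and HOXB2 (0.4933) were highest, and all HOXD genes shown but HOXD3 were at 0.

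Counting each read once where HOX rows are nested, HOXB genes held 79.35% to 88.99% of all HOX counts in a library. HOXA genes held 8.37% to 19.02% and HOXC genes 1.413% to 2.353%. HOXB3 alone accounted for 31.76% to 62.98%, over a counted span of 33752 bases. The pooled HOX signal was 28.28 and 25.08 counts per 1000000 of the effective library in control, 14.98 and 17.21 in senescent shControl, 14.32 and 15 in shMETTL3 and 9.485 and 10.82 in shMETTL14 libraries. Control libraries were highest and shMETTL14 libraries lowest, with no overlap with another group, while the shControl and shMETTL3 libraries overlapped. The placing of these last 2 groups depends on the scaling. Relative to all counts of a library, shMETTL3 libraries (250 and 283 of 15688334 and 14897360) lay above shControl libraries (227 and 277 of 20306299 and 19976761).

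Compared per gene length, HOXB5 had the highest mean over the 8 libraries, with 0.64 ± 0.049 RPKM (SD, n = 2) in control, 0.91 ± 0.18 in shControl, 0.55 ± 0.095 in shMETTL3 and 0.43 ± 0.065 in shMETTL14 libraries. HOXB2, a hindbrain gene near the 3′ end of its cluster, had the next highest mean over the 8 libraries, with 0.50 ± 0.064, 0.57 ± 0.22, 0.26 ± 0.28 and 0.64 ± 0.041 RPKM, and it was below HOXB5 in both libraries of control, shControl and shMETTL3 cells and above it in both shMETTL14 libraries. HOXB3 stood at 0.49 ± 0.038, 0.22 ± 0.042, 0.23 ± 0.0056 and 0.097 ± 0.011 RPKM. In control libraries HOXB3 and HOXB2 did not differ beyond their spread, and in shMETTL14 libraries every HOXB3 value (0.08927 and 0.1045) was below every HOXB2 value (0.6111 and 0.6686). HOXB4 averaged 0.2364 RPKM over the 8 libraries, HOXA5 0.2336, HOXB6 0.2094 and HOXB7 0.1605, and the ranges of neighbours in this order overlapped over the 8 libraries. The order differed between groups: HOXB7 had the second highest mean in shMETTL3 libraries (0.2737 RPKM, beside 0.2627 for HOXB2, with overlapping values), and HOXA5 the third highest in shMETTL14 libraries (0.2302 RPKM, beside 0.1948 for HOXB6). Among the 12844 genes tested, the mean level of HOXB5 was at percentile 92.37, that of HOXB2 at 90.31 and that of HOXA3 at 32.65.

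The remaining members of the 10 highest were sparse. HOXA2, which patterns the second pharyngeal arch, held 7 and 3 counts in control, 3 and 1 in shControl, 1 and 9 in shMETTL3 and 1 and 3 in shMETTL14 libraries. HOXB8 held 2 and 4, 3 and 3, 1 and 5, and 3 and 4 counts in the same order. These values overlap between all groups. The 16 members with counts that were not tested did not exceed 9 counts in any library, and differences at such counts were not detectable at this depth.

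Whether HOX transcription changed with senescence and with loss of each methyltransferase subunit was then tested. Genes were fitted with edgeR over all 8 libraries, counts were scaled by TMM (trimmed mean of M values), p-values were adjusted over the 12844 genes that passed the count filter, and a gene was called at an adjusted p below 0.05. The filter kept 8 HOX genes, HOXA3, HOXA5 and HOXB2 to HOXB7. Normalised read counts below are counts scaled to a common effective library of 17914006.

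**Figure D2:**
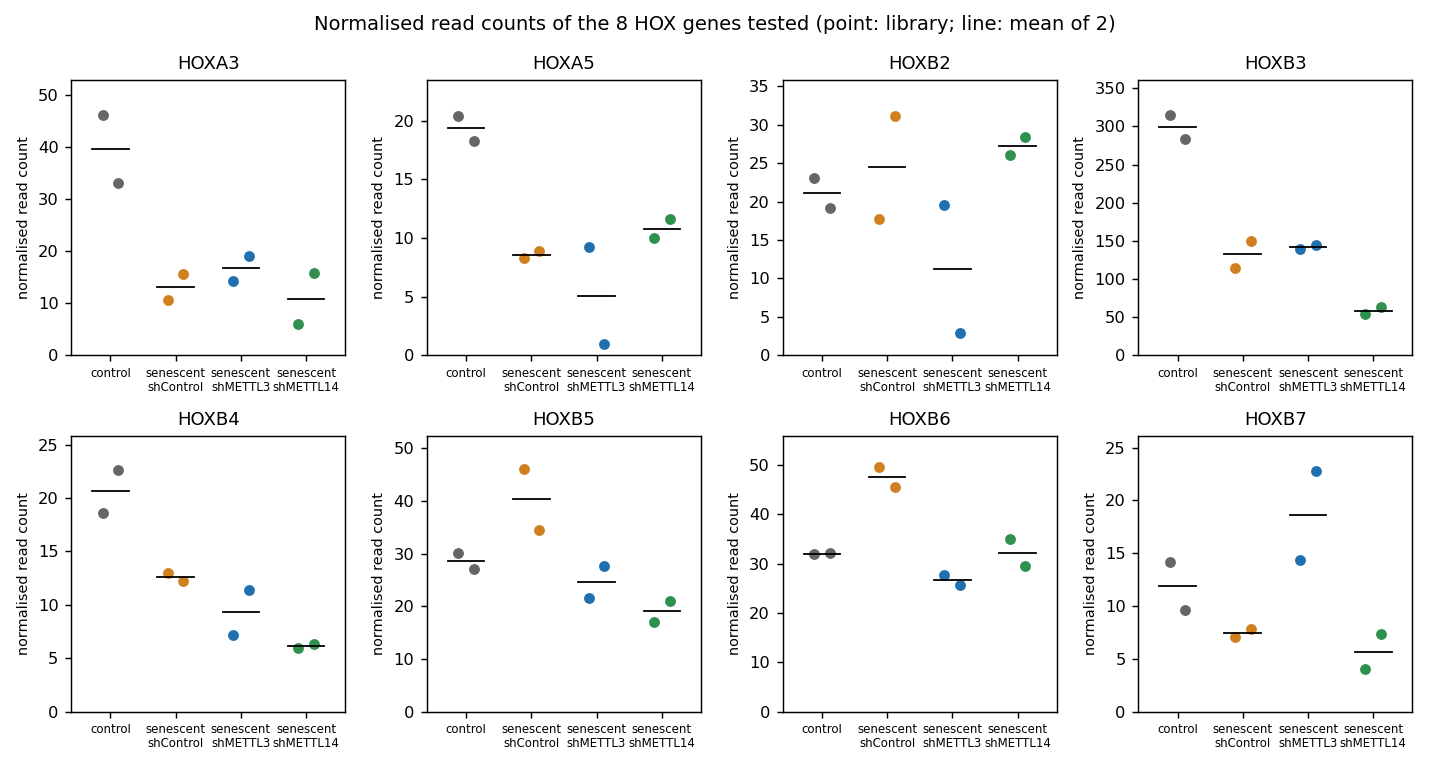
Normalised read counts (y axis, linear from 0) of the 8 HOX genes tested in the 4 groups, with a point for each library and a line at the mean of 2. HOXB3 fell from 283 and 315.3 in control to 114.7 and 150.2 in senescent shControl and was lowest at 53.97 and 63.18 in shMETTL14 libraries.

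In senescent shControl cells against control cells, HOXB3 and HOXA3, the paralog group 3 genes of their clusters, which pattern the pharyngeal region and hindbrain, were lower and no HOX gene was called higher. These were 2 of the 8 tested members, beside 13.3% of all tested genes called lower and 13.3% called higher. HOXB3 held 356 and 325 counts in control and 97 and 135 in shControl libraries. The groups did not overlap, and the log2 fold change was -1.17 ± 0.16 (SE), a 2.25-fold decrease (edgeR adjusted p = 2.1e-06). HOXA3 held 52 and 38 counts in control and 9 and 14 in shControl libraries, again without overlap, and fell by 1.58 ± 0.41 on the log2 scale (edgeR adjusted p = 0.0044). Its call rested on the first library of each group: without control replicate 1 the adjusted p was 0.081 and without shControl replicate 1 it was 0.089.

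The 6 other members did not pass the test. HOXA5, which lung development depends on, held 23 and 21 counts in control and 7 and 8 in shControl libraries, with a log2 fold change of -1.16 and a 95% interval of -2.27 to -0.04 before adjustment (edgeR adjusted p = 0.12). HOXB4 held 21 and 26 against 11 and 11 counts (log2 fold change -0.70, interval -1.62 to 0.21), and HOXB7 16 and 11 against 6 and 7 (-0.66, interval -1.81 to 0.49). Values pointed the other way for HOXB5, with 34 and 31 against 39 and 31 counts (0.49, interval -0.15 to 1.13), for HOXB6, with 36 and 37 against 42 and 41 counts (0.57, interval -0.0059 to 1.14), and for HOXB2, with 26 and 22 against 15 and 28 counts (0.22, interval -0.70 to 1.14). The median over the 8 members was -0.68 on the log2 scale, beside -0.03 over all genes tested. Scaling by library size alone, which moved the median of all tested genes to -0.53, called 4 HOX genes lower, HOXA5 and HOXB4 in addition, and put HOXB2 and HOXB5 below 0 (-0.27 and -0.0064). HOXA5 was also called lower when only the 2 groups compared were fitted (-1.12, edgeR adjusted p = 0.044).

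**Figure D3:**
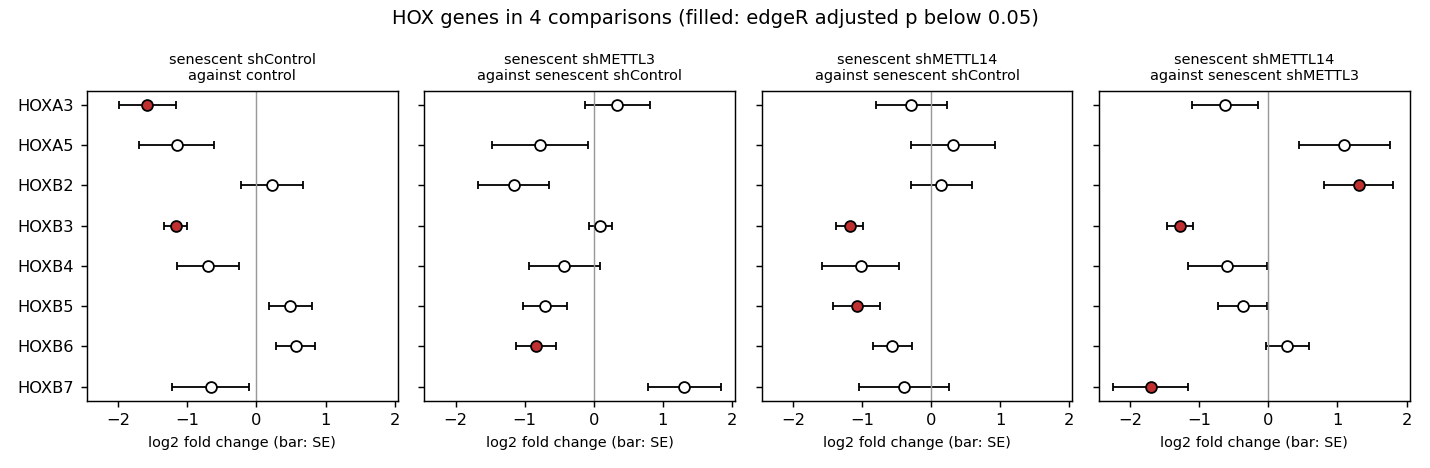
Log2 fold change (x axis) with SE (bars) of the 8 tested HOX genes (y axis) in the 4 comparisons, filled where the edgeR adjusted p was below 0.05. HOXB3 was called in 3 of the 4 panels, at -1.17, -1.18 and -1.28, and stood at 0.10 in shMETTL3 against shControl.

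In shMETTL3 cells HOXB3 lay within the range of the senescent shControl cells. It held 136 and 152 counts in shMETTL3 libraries, or 139.5 and 144.3 after normalisation, within the 114.7 to 150.2 of the shControl libraries. Its log2 fold change was 0.10, with a 95% interval of -0.26 to 0.45 (edgeR adjusted p = 0.74). Scaled by library size alone, which moved the median of all genes tested to 0.58, HOXB3 was instead called higher (0.71, edgeR adjusted p = 0.0048), as was HOXB7 (1.93, adjusted p = 0.0025).

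HOXB6 was the 1 member of 8 called lower in shMETTL3 against shControl cells, beside 11.2% of all tested genes called lower and 12.3% called higher, with no member called higher. It held 42 and 41 counts in shControl and 27 and 27 in shMETTL3 libraries, without overlap, and fell by 0.83 ± 0.29 (SE) on the log2 scale (edgeR adjusted p = 0.039). This call was lost with DESeq2 (adjusted p = 0.19), with library size alone (0.60), with no count filter (0.05), with only the groups compared (0.067), without shControl replicate 1 (0.18) or 2 (0.12) and without shMETTL3 replicate 2 (0.10). With no count filter HOXB2 was called lower instead (-1.17, edgeR adjusted p = 0.046, against 0.10 with the filter). HOXB7 held 6 and 7 counts in shControl and 14 and 24 in shMETTL3 libraries, with a log2 fold change of 1.31 and an interval of 0.22 to 2.40 (edgeR adjusted p = 0.074). HOXB5 held 39 and 31 against 21 and 29 counts (-0.70, adjusted p = 0.12). HOXB4 held 11 and 11 against 7 and 12 counts, and HOXA3 9 and 14 against 14 and 20. The median over the 8 members was -0.57, beside -0.03 over all genes tested, and 0.05 with library size alone.

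The 2 shMETTL3 libraries differed from each other at several HOX genes. HOXB2 held 19 counts in the first and 3 in the second, and HOXA5 held 9 and 1. HOXA2 held 1 and 9, and HOXA-AS2, the antisense RNA that overlaps HOXA3, 2 and 16. The second library was low for the first pair and high for the others. Across all tested genes outside the ribosomal RNA rows, the variance between the replicates was 5.263 times sampling noise in shMETTL3 and 1.557 to 2.523 times in the other groups. The fit shared its estimate of each gene's spread over the 4 groups, so SEs and adjusted p-values of comparisons with shMETTL3 may be too small. Without shMETTL3 replicate 1, HOXA5, HOXB2 and HOXB6 were called lower and HOXB7 higher, and without replicate 2 no member was called.

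HOXB3 was lower again in shMETTL14 than in senescent shControl cells. Its 54 and 60 counts in shMETTL14 libraries compare with 97 and 135 in shControl libraries, and the log2 fold change was -1.18 ± 0.20 (SE), a 2.27-fold decrease (edgeR adjusted p = 6.4e-05). HOXB5, which is active in the embryonic lung mesenchyme, held 39 and 31 counts in shControl and 17 and 20 in shMETTL14 libraries and fell by 1.08 ± 0.34 on the log2 scale (edgeR adjusted p = 0.024). These were 2 of the 8 members, beside 12% of all tested genes called lower, and no member was called higher, beside 9.15%. The HOXB3 call held in every alternative, with adjusted p from 3.8e-07 to 0.0093. The HOXB5 call was lost with DESeq2 (adjusted p = 0.12), with library size alone (0.11), without shControl replicate 1 (0.22) and without either shMETTL14 library (0.19 and 0.062).

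The other 6 members did not pass. HOXB4 held 11 and 11 counts in shControl and 6 and 6 in shMETTL14 libraries (log2 fold change -1.02, interval -2.17 to 0.13). HOXB6 held 42 and 41 against 35 and 28 (-0.56, interval -1.15 to 0.03), and HOXB7 6 and 7 against 4 and 7. HOXA3 held 9 and 14 against 6 and 15, HOXA5 7 and 8 against 10 and 11, and HOXB2 15 and 28 against 26 and 27. The median over the 8 members was -0.48, beside -4.9e-05 over all genes tested. The shControl libraries enter all 3 comparisons above, so their errors are shared.

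Set against each other, the knockdowns differed at 3 members. HOXB3 was lower in shMETTL14 than in shMETTL3 cells by 1.28 ± 0.19 (SE) on the log2 scale, a 2.42-fold difference (edgeR adjusted p = 8.4e-06). HOXB7 was lower as well, with 4 and 7 counts against 14 and 24 and a log2 fold change of -1.70 ± 0.54 (edgeR adjusted p = 0.016). HOXB2 was higher, with 26 and 27 counts against 19 and 3 (1.31 ± 0.49, edgeR adjusted p = 0.041). That makes 2 of 8 members lower, beside 18.7% of all tested genes, and 1 of 8 higher, beside 16.5%. The HOXB2 difference rested on shMETTL3 replicate 2, without which it was 0.49 (adjusted p = 0.42), and its call was also lost with DESeq2 (0.13), with library size alone (0.053), with only the groups compared (0.08), with the replicate number as a block (0.05) and without either shMETTL14 library (0.12 and 0.14). The HOXB7 call was lost with DESeq2 (adjusted p = 0.081), without shMETTL3 replicate 2 (0.15) and without shMETTL14 replicate 1 (0.20). HOXB3 was called in every alternative, at -1.54 to -1.19. The median over the 8 members was -0.48, beside 0.01 over all genes tested.

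HOXB3 could also be read within each library, where no scaling between libraries enters. The counts of HOXB4, whose span lies inside the HOXB3 row and covers 8.518% of it, were first taken away. The ratio of the rest of HOXB3 to HOXB5 plus HOXB6, its neighbours in the cluster, was 4.786 and 4.397 in control, 1.062 and 1.722 in senescent shControl, 2.688 and 2.5 in shMETTL3 and 0.9231 and 1.125 in shMETTL14 libraries. Control libraries were highest, shMETTL3 libraries were above both shControl and both shMETTL14 libraries, and the latter groups overlapped. A ratio mixes the changes of both parts: HOXB6 was called lower in shMETTL3 cells and HOXB5 in shMETTL14 cells. With senescence HOXB5 and HOXB6 had the largest positive log2 fold changes of the tested members (0.49 and 0.57, neither called). The ratio therefore fell by more than HOXB3 itself. HOXB2 and HOXB4 were not part of the denominator. With 2 libraries a group an exact two-sided permutation test cannot go below p = 0.333, and none was run. Without the HOXB4 counts HOXB3 was called in the same 3 comparisons.

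**Figure D4:**
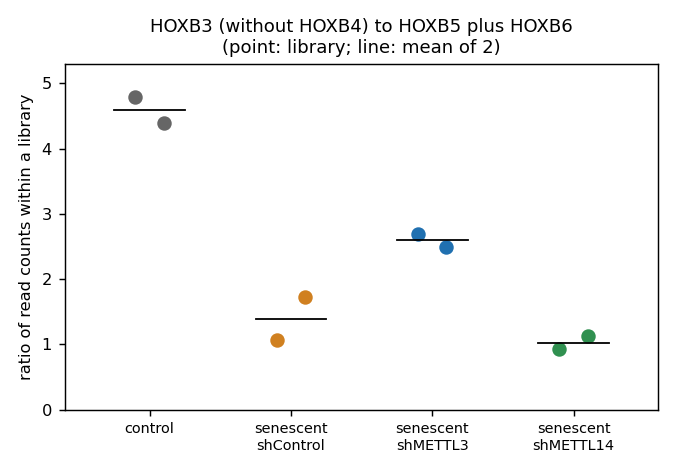
Ratio of HOXB3 counts, without those of the nested HOXB4, to HOXB5 plus HOXB6 counts within each library (y axis, linear from 0) in the 4 groups, with a point for each library and a line at the mean of 2. Control libraries lay at 4.397 and 4.786 and all senescent libraries at 2.688 or below.

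The clusters also hold non-coding genes, many of which run antisense to HOX genes. The file header names a single-strand counting option, but counts behaved as if both strands were pooled: among 313 pairs of rows in which one lies wholly inside another of opposite strand, with at least 100 counts over the libraries, the inner row exceeded the outer in any library in 1. HOXB5 and HOXB6 lie inside HOXB-AS3 and together made up 88.31% to 100% of its counts, and HOXA5, HOXA6 and most of HOXA7 lie inside HOXA-AS3 and made up 80% to 100%. HOXA3 shares 24.49% of its span with HOXA-AS2, HOXB2 28.67% with HOXB-AS1, and HOXB3 7.028% with HOXB-AS1. Sense and antisense transcription of these genes therefore cannot be told apart, and the HOXA5, HOXB5 and HOXB6 values are uncertain in that respect.

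Of the 22 non-coding genes listed, 4 passed the count filter, HOTAIRM1, HOXA-AS3, HOXB-AS1 and HOXB-AS3. HOTAIR, a HOXC RNA of posterior fibroblasts, and HOTTIP, at the posterior end of HOXA, were at 0 in all libraries. HOXA-AS3 held 33 and 35 counts in control and 8 and 10 in shControl libraries (log2 fold change -1.52 ± 0.48, edgeR adjusted p = 0.02), the 1 of 4 called lower there, beside 13.3% of all tested genes. HOXB-AS3 held 76 and 77 counts in control, 88 and 75 in shControl, 52 and 59 in shMETTL3 and 54 and 48 in shMETTL14 libraries, and was the 1 of 4 called lower in each knockdown, beside 11.2% of all tested genes with shMETTL3 and 12% with shMETTL14, by 0.77 ± 0.21 (edgeR adjusted p = 0.0094) and 0.84 ± 0.22 (adjusted p = 0.0062) on the log2 scale. With senescence its log2 fold change was 0.48 (edgeR adjusted p = 0.087), which was called higher with only the groups compared (0.52, adjusted p = 0.028). None of the 4 was called between the knockdowns, although HOXA-AS3 was called higher in shMETTL14 cells without shMETTL3 replicate 1 (3.71, edgeR adjusted p = 0.0017), and was then also called lower in shMETTL3 than in shControl cells (-3.30, adjusted p = 0.012). HOTAIRM1, at the low-numbered end of HOXA, held 30 and 25, 14 and 10, 15 and 31, and 25 and 12 counts in the 4 groups and was not called. With library size alone neither HOXB-AS3 call was made, and DESeq2 made neither (adjusted p = 0.083 and 0.053) nor that of HOXA-AS3 (0.10). Without shControl replicate 1 the HOXB-AS3 calls were lost (edgeR adjusted p = 0.14 and 0.12), as was that with shMETTL14 without shMETTL14 replicate 2 (0.054), and the HOXA-AS3 call was lost without any 1 of its 4 libraries (0.08 to 0.15).

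Genes next to the clusters were read as neighbours that are no HOX genes. Of 10 listed, 5 were tested. SKAP2, an adaptor of immune and adhesion signalling at the low-numbered end of HOXA, held 232 and 287 counts in control, 140 and 126 in shControl, 177 and 214 in shMETTL3 and 108 and 100 in shMETTL14 libraries. It was the 1 neighbour called lower with senescence (-0.58 ± 0.16, edgeR adjusted p = 0.0074) and with shMETTL14 (-0.52 ± 0.17, adjusted p = 0.035), beside 13.3% and 12% of all tested genes called lower, and no neighbour was called in shMETTL3 against shControl cells. With library size alone SKAP2 was called higher there (0.96, edgeR adjusted p = 7.4e-05). In shMETTL14 against shMETTL3 cells 3 of 5 were lower, beside 18.7% of all tested genes, SKAP2 by 0.85 ± 0.17 on the log2 scale (edgeR adjusted p = 0.00026). The first SKAP2 call was lost with DESeq2 (adjusted p = 0.06) and without control or shControl replicate 2 (0.16 and 0.15), and the second with DESeq2 (0.14), with library size alone (0.61) and without any 1 of its libraries (0.064 to 0.29).

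The TALE cofactors, which bind DNA jointly with HOX proteins, were also read in senescent shControl against control cells, where 5 of the 7 tested were called lower and none higher, beside 13.3% of all tested genes in each direction. MEIS1, the partner of HOX and PBX proteins, fell from 668 and 748 counts in control to 191 and 255 in shControl libraries (-1.28 ± 0.16, edgeR adjusted p = 2.8e-07). MEIS2 fell from 339 and 346 to 101 and 142 (-1.11 ± 0.16, edgeR adjusted p = 5.7e-06). PBX3 and PKNOX2 were also called lower. The PBX3 call was lost without control replicate 2 (edgeR adjusted p = 0.084) or either shControl library (0.057 and 0.052), and that of PKNOX2 with DESeq2 (adjusted p = 0.11) and without control replicate 1 (0.17) or shControl replicate 1 (0.32). The list's median was -0.69. MEIS1 and MEIS2 were called lower in every alternative run.

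**Figure D5:**
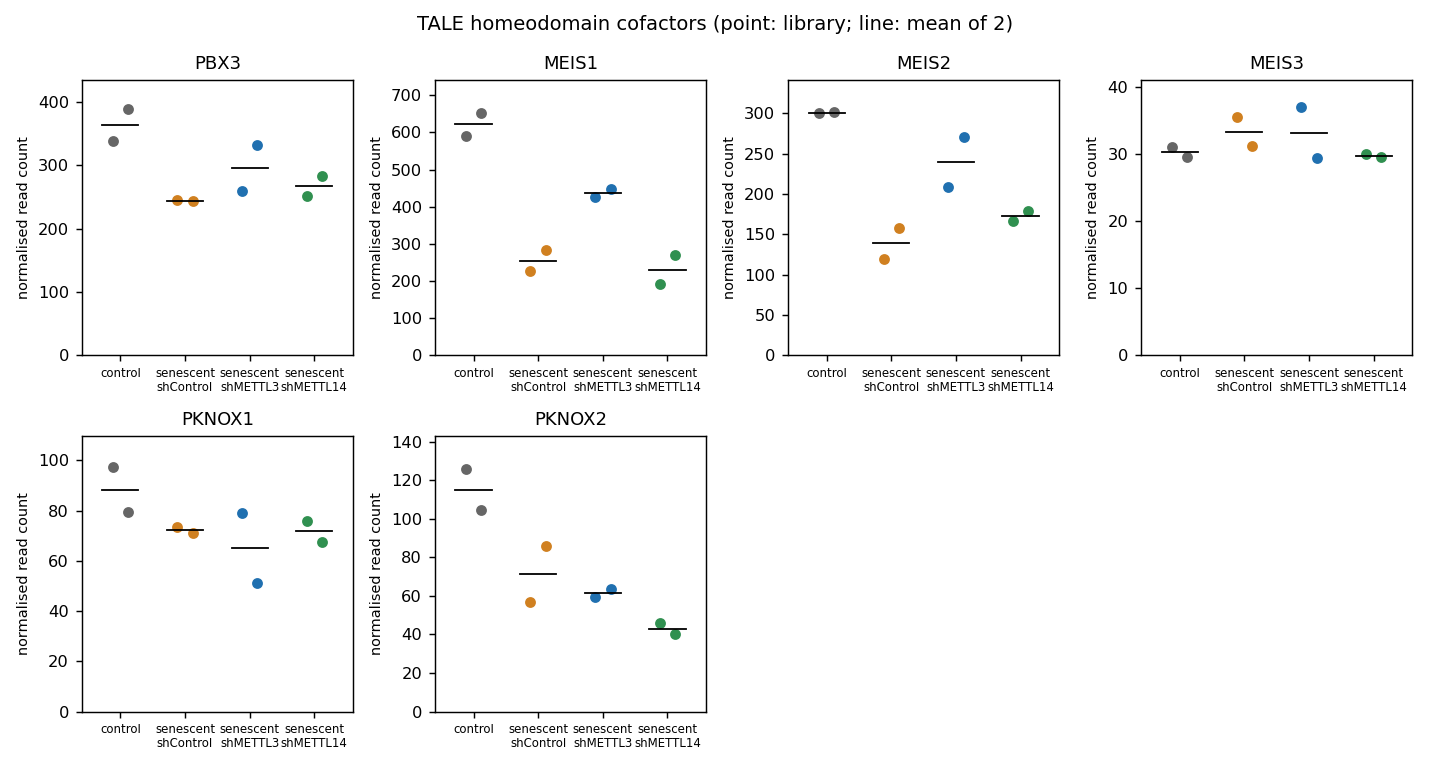
Normalised read counts (y axis, linear from 0) of 6 TALE cofactors in the 4 groups, with a point for each library and a line at the mean of 2. MEIS1 lay at 591.6 and 651.4 in control and was higher in shMETTL3 (425.8 and 448.2) than in the other senescent libraries.

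In shMETTL3 against shControl cells 2 of the 7 cofactors were called higher and none lower, beside 12.3% and 11.2% of all tested genes. MEIS1 held 415 and 472 counts in shMETTL3 libraries, a log2 fold change of 0.78 ± 0.16 (edgeR adjusted p = 0.00062), and MEIS2 held 203 and 285 (0.79 ± 0.17, edgeR adjusted p = 0.00096). The MEIS2 call was lost without shControl replicate 1 (adjusted p = 0.062). PBX3 was also called higher with library size alone (0.90, edgeR adjusted p = 4.7e-05) and without shMETTL3 replicate 1 (0.42, adjusted p = 0.033). In shMETTL14 against shControl cells 1 of 7 was called lower, near the 12% of all tested genes, PKNOX2, with 46 and 38 counts against 48 and 77 (-0.73 ± 0.25, edgeR adjusted p = 0.034), which without shControl replicate 2 was -0.40 (adjusted p = 0.47). This call was also lost with DESeq2 (0.14), with library size alone (0.30) and without either shMETTL14 library (0.097 and 0.17). With library size alone MEIS2 (0.66, edgeR adjusted p = 0.012) and PBX3 (0.48, adjusted p = 0.047) were called higher. Between the knockdowns 3 of 7 were lower in shMETTL14 cells, beside 18.7% of all tested genes, among them MEIS1 by 0.92 ± 0.16 (edgeR adjusted p = 4.9e-05) and MEIS2 by 0.47 ± 0.16 (adjusted p = 0.023). Without shMETTL3 replicate 2 the MEIS2 difference was -0.25 (edgeR adjusted p = 0.30), and its call was also lost with DESeq2 (0.088), with only the groups compared (0.067) and without either shMETTL14 library (0.14 and 0.058).

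In bulk libraries such as these, fewer cells of a kind and less nascent RNA per cell cannot be told apart. Of the 11 fibroblast markers tested, 7 were called lower and 1 higher in senescent shControl against control cells, beside 13.3% of all tested genes in each direction, where 2 of the 8 HOX genes were called. In shMETTL3 against shControl cells 2 markers were lower and 1 higher, beside 11.2% and 12.3%. In shMETTL14 against shControl cells 9 were lower and 0 higher, beside 12% and 9.15%. Between the knockdowns 7 were lower in shMETTL14 cells and 1 higher, beside 18.7% and 16.5%. CD68, a lysosomal gene used as a macrophage marker, rose in senescent shControl cells (17 and 16 counts against 60 and 45, log2 fold change 2.05 ± 0.33, edgeR adjusted p = 2.6e-05). With 42 and 26 counts it was lower in shMETTL3 than in shControl cells (-0.84 ± 0.30, edgeR adjusted p = 0.04), a call lost with DESeq2 (0.18), with library size alone (0.56), with only the groups compared (0.065), without shControl replicate 1 (0.34) and without shMETTL3 replicate 2 (0.28). TEK, an endothelial receptor and the only 1 of 5 endothelial markers tested, held 105 and 123 counts in control, 37 and 48 in shControl, 49 and 68 in shMETTL3 and 13 and 26 in shMETTL14 libraries. It was called lower in the same 3 comparisons as HOXB3, with senescence (-1.04 ± 0.25, edgeR adjusted p = 0.002), with shMETTL14 (-1.28 ± 0.32, adjusted p = 0.0048) and in shMETTL14 against shMETTL3 cells (-1.52 ± 0.30, adjusted p = 0.00032). The first of these was lost without shControl replicate 1 (0.06) and the second without shControl replicate 2 (0.077) or shMETTL14 replicate 1 (0.15). KRT18, an epithelial keratin, held 12 and 13 counts in shMETTL3 and 43 and 32 in shMETTL14 libraries, a difference of 1.63 ± 0.38 (edgeR adjusted p = 0.0014), and was not called in the other comparisons. With library size alone KRT18 was also called higher with shMETTL14 (edgeR adjusted p = 0.014) and TEK higher with shMETTL3 (adjusted p = 0.0085). The part of these differences in the HOX values was not tested.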

How the data were processed

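fastGRO-seq libraries of 8 IMR90 samples, 2 per group, were analysed from 1 deposited table. The table holds raw read counts per gene that the authors made with HOMER's analyzeRepeats over whole genes of hg19, unnormalised, per the file header. The methods name HOMER 4.10 and DESeq2 1.12.3, and the submitters' processing notes name STAR and deepTools 3.3. By its methods the study added Drosophila nuclei as a spike-in and normalised its alignments by their RNA. That spike-in was not used here, so changes are relative to the TMM scaling and do not measure absolute transcription.

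Members were the rows whose symbol, before the first separator, is HOXA, HOXB, HOXC or HOXD and a number. Members and gene lists were chosen with earlier results of these data known. Named were all members, with values per library for those called in any comparison and the 10 highest by mean RPKM, and from each other list at most the 3 called genes with the largest change per comparison and a mean of at least 20 counts. Of the others, HOTAIRM1, HOTAIR, HOTTIP, the marker genes (TEK and KRT18 included), HOXA-AS2 and PBX3 were named after their values were seen. Some genes are counted in their lists but not reported singly here.

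Counts of 12844 rows that passed filterByExpr (minimum count 10) were fitted with edgeR 4.0.16 (R 4.3.3, limma 3.58.1) by glmQLFit and glmQLFTest over all 8 libraries with TMM, and p-values were adjusted by Benjamini-Hochberg with a threshold of 0.05. SE is the absolute log2 fold change divided by the square root of F. RPKM is counts per kilobase of the file's length and per 1000000 counts of the effective library. No per-sample column was left unmapped. The fit was checked on simulated data. Alternatives were DESeq2 1.42.0, other scalings and filters, removal of ribosomal RNA rows, only the groups compared, a replicate block, a threshold of 0.01 and leaving out each library. A minimum count of 5 and HOXB3 without HOXB4 counts were added after seeing the data. The ratio to HOXB5 plus HOXB6 was not among the planned results. Depth was 14897360 to 20306299 counts, and limits from a count of 0 are 3 counts.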

Additional observations from a re-analysis of the deposited data

Results flagged for a closer look

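Effects of the knockdowns on 3 HOX genes differed from each other by a direct test, shMETTL14 against shMETTL3 in the fit over all libraries. HOXB3 differed by -1.28 on the log2 scale (edgeR adjusted p = 8.4e-06), with both shMETTL14 libraries (54 and 60 counts) below both shMETTL3 libraries (136 and 152). HOXB7 differed by -1.70 (edgeR adjusted p = 0.016), again with both libraries below both (4 and 7 against 14 and 24 counts), a call lost with DESeq2 (adjusted p = 0.081), without the second shMETTL3 library (0.15) and without the first shMETTL14 library (0.20). HOXB2 differed by 1.31 (edgeR adjusted p = 0.041), with 26 and 27 counts against 19 and 3, and by 0.49 without the second shMETTL3 library (adjusted p = 0.42). Groups of 2 libraries are too small for a test of single outlying samples.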

How the results depend on the processing

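HOXB3 was called lower with senescence, with shMETTL14 and between the knockdowns under every alternative run, with edgeR or DESeq2 adjusted p up to 0.0093. Of the single-gene results, 1163 stayed on their side of the threshold in the same direction, 94 lost a call, 24 gained 1 and 32 changed sign, none of which was called under either setting, and the causes were not tested. HOX genes lower with senescence, 2 as reported, numbered 4 with library size alone, 3 with only the groups compared, where HOXA5 was called, 1 with at least 10 counts in every library, where HOXA3 was not tested, and 1 to 2 with 1 library left out. For shMETTL3 against shControl, HOX genes lower, 1 as reported, numbered 0 with DESeq2, with library size alone, with only the groups compared and at 0.01, and 0 to 3 with 1 library left out. It stayed at 1 with no count filter, where HOXB2 was called in place of HOXB6. Those higher, 0 as reported, numbered 2 with library size alone and 0 to 1 with 1 library left out. For shMETTL14 against shControl, HOX genes lower, 2 as reported, numbered 1 with DESeq2, with library size alone, at 0.01, and 1 to 2 with 1 library left out. Between the knockdowns, HOX genes higher, 1 as reported, numbered 0 with DESeq2, with library size alone, with at least 10 counts in every library, with only the groups compared and at 0.01, and 0 to 2 with 1 library left out. Those lower, 2 as reported, numbered 1 with DESeq2, with at least 10 counts in every library and at 0.01, and 1 to 2 with 1 library left out. The HOX median with library size alone was -1.17 with senescence and 0.052 with shMETTL3. Called counts of all genes also moved. Over all tested genes, scaling by library size gave median log2 fold changes of -0.53, 0.58, 0.35 and -0.25 in the 4 comparisons. The reported medians were -0.03, -0.03, -4.9e-05 and 0.01. With that scaling 752 genes were higher and 5015 lower with senescence, and 5287 and 353 with shMETTL3. It gave 3163 and 709 with shMETTL14, and 1177 and 3486 between the knockdowns. As reported, the counts were 1711 and 1702, 1574 and 1434, 1175 and 1545, and 2118 and 2399. DESeq2 called 1231 and 908, 971 and 727, 568 and 951, and 1212 and 1707.

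Values that changed sign, none of them called as reported or with the sign changed, are given here. With library size alone, senescence gave HOXB2 -0.27, HOXB5 -0.0064, HOXB-AS3 -0.022, KRT18 -0.34 and METTL3 -0.46, shMETTL3 gave HOXB4 0.19, PKNOX2 0.40 and EZH2 0.50, shMETTL14 gave HOXA3 0.055, MEIS1 0.19, EZH2 0.32 and METTL3 0.25, and the knockdowns against each other gave TCF21 -0.026 and EZH2 -0.19. With the upper quartile, senescence gave METTL3 -0.013. With 1 library left out, those for senescence ranged from -0.23 to 0.57 for HOXB2, -0.29 to 0.53 for KRT18 and -0.40 to 0.40 for METTL3. With 1 library left out, those for shMETTL3 ranged from -3.04 to 0.082 for HOXA5, -0.091 to 0.30 for HOXB3, -0.48 to 0.11 for PKNOX2 and -0.051 to 0.38 for TBX5. With 1 library left out, those for shMETTL14 ranged from -1.12 to 0.24 for HOXA3, -0.20 to 0.61 for HOXB2, -0.41 to 0.059 for MEIS1, -0.10 to 0.0055 for EZH2 and -0.47 to 0.33 for METTL3, and that of PBX3 between the knockdowns from -0.30 to 0.058.

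Replicate numbers were shared between groups, but the labels do not say that a number marks a batch, and the deviations of replicate 1 correlated at only -0.04 to 0.09 over 6 pairs of groups. With the number as a replicate block, HOX genes higher between the knockdowns numbered 0, as HOXB2 was lost (1.32, adjusted p = 0.05), and no other HOX count changed. With 1 library of a group left out, the lone library was taken to vary like the other groups. Depth limits the 31 members that were not tested.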

Other observations

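Lung mesenchyme factors, which specify or maintain the tissue these fibroblasts came from, were lower in senescent shControl than in control cells in 7 of 11 tested, with none higher, beside 13.3% of all tested genes in each direction. TBX5, a regulator of lung bud outgrowth, held 262 and 223 counts in control, 51 and 73 in shControl, 79 and 81 in shMETTL3 and 18 and 25 in shMETTL14 libraries, a log2 fold change of -1.58 ± 0.19 with senescence (edgeR adjusted p = 3.2e-07) and of -1.68 ± 0.27 with shMETTL14 (adjusted p = 4.3e-05). TCF21, a lung mesenchyme factor, held 81 and 67, 27 and 20, 7 and 8, and 9 and 8 counts, and was lower with shMETTL3 (-1.85 ± 0.43, edgeR adjusted p = 0.0021) and with shMETTL14 (-1.62 ± 0.42, adjusted p = 0.006) than with shControl. Its fall with senescence (-1.26 ± 0.30, edgeR adjusted p = 0.002) was lost without control replicate 1 (0.052) or shControl replicate 2 (0.065), and that with shMETTL14 without shControl replicate 1 (0.095). PRRX1, a mesenchymal homeodomain factor, held 224 and 250, 60 and 85, 160 and 168, and 141 and 151 counts, and was higher in both knockdowns than in shControl cells (0.96 ± 0.18, edgeR adjusted p = 0.00027, and 0.85 ± 0.18, adjusted p = 0.0012, lost without shControl replicate 1 at 0.062). In shMETTL3 against shControl cells 2 of 11 were higher and 2 lower, beside 12.3% and 11.2% of all tested genes. In shMETTL14 against shControl cells 1 was higher and 6 lower, beside 9.15% and 12%, and between the knockdowns 0 were higher and 6 lower in shMETTL14 cells, beside 16.5% and 18.7%.

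Polycomb subunits, which silence HOX genes, were called lower in 2 of 23 tested with senescence and in none higher, beside 13.3% of all tested genes in each direction. EZH2, the H3K27 methyltransferase, held 96 and 108 counts in control and 31 and 35 in shControl libraries (-1.24 ± 0.24, edgeR adjusted p = 0.00021). In each knockdown against shControl 2 of 23 were higher and 2 lower, beside 12.3% and 11.2% of all tested genes with shMETTL3 and 9.15% and 12% with shMETTL14. Between the knockdowns 1 was higher and 2 lower, beside 16.5% and 18.7%. Trithorax proteins and H3K27 demethylases, which oppose Polycomb, were called lower in 2 of 12 with senescence, beside 13.3% of all tested genes, and higher in none. Of the 12, 1 was higher and 1 lower with shMETTL3, 2 were higher and 1 lower with shMETTL14, and 3 were higher and 2 lower between the knockdowns, beside the same shares of all tested genes as given for the Polycomb subunits. All 4 neural markers were below the count filter.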
